A study of Drosophila melanogaster with 2 samples.

Results

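Nuclear transfer RNA (tRNA) genes were taken as every gene of biotype tRNA, with a symbol starting tRNA:, on the nuclear chromosome arms of the Drosophila melanogaster dm6 annotation. There were 290 such genes among 17947 annotated genes, belonging to 22 isotypes (the amino acid a tRNA carries, with initiator methionine and selenocysteine counted apart) and 45 anticodons. Peaks were assigned to them by summit, the base of highest signal in a peak, when that base lay within 500 bp of the tRNA gene start. Positions are given along the strand of the tRNA gene, negative upstream of its start. The deposited data are peak lists from chromatin immunoprecipitation followed by sequencing (ChIP-seq) of ranshi, a zinc finger protein, expressed as a ranshi-eGFP fusion in transgenic flies and precipitated through its GFP tag. All material was whole embryos of the ranshi-GFP strain collected 0 to 24 hours after laying. There was 1 group with 2 biological replicates and no contrast between conditions. Whole embryos mix all cell types and stages of that interval, the tissue in which the fusion was expressed is not given in the sources used here, and control libraries were not analysed here.

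tRNA genes are transcribed by RNA polymerase III from promoters that lie inside the gene. TFIIIC binds the internal A and B boxes and places TFIIIB, the factor made of Brf, Bdp1 and a TBP-family protein, just upstream of the start, from where it recruits the polymerase. The genes occur in many near-identical copies, often in clusters, so that neighbouring genes can share a peak and reads from inside a gene body often match several copies.

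The authors deposited 4 thresholded peak sets, each with a longer ranked list of candidates. The sets were a conservative and a larger set made across both replicates and 1 set for each replicate, all thresholded by IDR, the irreproducible discovery rate, which scores how reproducibly a peak ranks. On the nuclear arms the conservative set held 2984 of 88849 candidates (3.36%), the larger set 5359 of 130767 (4.1%), the replicate 1 set 3582 of 110168 (3.25%) and the replicate 2 set 3149 of 83225 (3.78%). Signal is the authors' own value for each peak and is not scaled between lists, so positions within a list are given beside it. Read depth is not given in the sources used here. Intervals on shares are exact binomial 95% intervals that treat genes as independent, which clustered copies are not.

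Annotated tRNA genes were short and repetitive. Lengths ran from 71 to 186 bp with a median of 73 bp, and 238 of the 290 genes (82.1%) had at least 1 other gene of identical sequence. The 290 genes held 95 distinct sequences, and the largest identical group had 13 members. The median gene had 0% of its 31-base words unique in the genome, whereas the window of 500 bp on either side had 92.1% of them unique. Joining genes whose starts lay within 500 bp of a neighbour gave 202 loci, of which 142 held a single gene and the largest held 6. A protein-coding start lay within 500 bp of 32 tRNA starts, and 134 tRNA genes lay inside the span of a protein-coding gene. Starts of all annotated transcripts of a protein-coding gene were counted as protein-coding starts.

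The sequences below set 5 of the 7 conservative peaks beside 2 replicate 2 peaks whose windows reached into a tRNA gene. Each summit window is the RefSeq dm6 reference from 50 bp before to 50 bp after a summit, written 5′ to 3′ on the strand of the tRNA gene, with bases of an annotated tRNA gene in capitals. The first 5 windows are conservative summits, not the 5 highest by signal, and none of them reached a tRNA gene. The last 2 are replicate 2 summits, whose windows held 55 bases of tRNA:Pro-AGG-1-4 and 15 bases of tRNA:Asp-GTC-1-4. These 2 were chosen after their values were seen.
tRNA:Tyr-GTA-1-8 summit window, 3R:8669294-8669394: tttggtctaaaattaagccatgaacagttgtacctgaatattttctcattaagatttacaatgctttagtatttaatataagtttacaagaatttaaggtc
tRNA:Phe-GAA-1-2 summit window, X:6744236-6744336: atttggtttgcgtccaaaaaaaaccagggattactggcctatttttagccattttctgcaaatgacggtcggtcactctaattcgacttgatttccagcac
tRNA:Val-CAC-2-5 summit window, 3R:19671828-19671928: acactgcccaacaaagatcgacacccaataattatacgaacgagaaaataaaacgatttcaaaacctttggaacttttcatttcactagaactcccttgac
tRNA:Gln-TTG-2-1 summit window, X:3427685-3427785: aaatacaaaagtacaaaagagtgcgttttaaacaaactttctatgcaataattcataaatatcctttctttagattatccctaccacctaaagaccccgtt
tRNA:Leu-TAA-2-1 summit window, 3R:24112696-24112796: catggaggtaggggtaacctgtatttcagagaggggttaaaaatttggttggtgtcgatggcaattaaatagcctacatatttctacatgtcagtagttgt
tRNA:Pro-AGG-1-4 summit window, 2L:14599628-14599728: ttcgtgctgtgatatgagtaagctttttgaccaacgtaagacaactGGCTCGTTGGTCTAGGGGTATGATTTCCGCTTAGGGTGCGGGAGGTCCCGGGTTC
tRNA:Asp-GTC-1-4 summit window, 2L:8541609-8541709: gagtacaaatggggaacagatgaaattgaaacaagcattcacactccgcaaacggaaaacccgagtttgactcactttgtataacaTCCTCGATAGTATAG

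Some of the genes themselves are shown whole, to set single-copy genes with a conservative peak beside a multi-copy gene with a replicate 2 peak. Capitals mark an A-box-like stretch matching TNGNNNAG and a B-box-like stretch matching GTTCNANNC, relaxed forms chosen after the sequences were seen. In all, 256 of the 290 genes (88.3%) held TNGNNNAG and 271 (93.4%) held GTTCNANNC on the gene strand. The stricter cores TGGCNNAGT and GTTCGANTC were in 34 (11.7%) and 112 (38.6%) genes. tRNA:Tyr-GTA-1-8, tRNA:Leu-TAA-2-1 and tRNA:Gln-TTG-2-1 had no identical copy, while tRNA:Pro-AGG-1-4 was 1 of 7 identical genes. The tyrosine gene is 94 bp long, and tyrosine tRNA genes of flies carry an intron after the anticodon.
tRNA:Tyr-GTA-1-8 gene, 3R:8669081-8669174, minus strand: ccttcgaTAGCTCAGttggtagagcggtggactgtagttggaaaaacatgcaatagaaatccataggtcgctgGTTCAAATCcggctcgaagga
tRNA:Leu-TAA-2-1 gene, 3R:24112964-24113047, plus strand: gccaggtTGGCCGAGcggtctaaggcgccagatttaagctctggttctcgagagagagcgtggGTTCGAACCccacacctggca
tRNA:Gln-TTG-2-1 gene, X:3427452-3427523, minus strand: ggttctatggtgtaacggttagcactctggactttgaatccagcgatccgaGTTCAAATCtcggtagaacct
tRNA:Pro-AGG-1-4 gene, 2L:14599674-14599745, plus strand: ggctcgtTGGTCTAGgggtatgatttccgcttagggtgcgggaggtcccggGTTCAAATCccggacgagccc

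Few tRNA genes had a thresholded peak. In the conservative set 7 of 290 tRNA genes (2.41%, interval 0.976 to 4.91) had a summit within 500 bp of their start, where the share over all annotated genes was 9.41% and over protein-coding genes 11.1%. In the larger set the count was 13 (4.48%, 2.41 to 7.54), beside 15.6% of all genes. Replicate 1 alone gave 6 tRNA genes (2.07%, 0.763 to 4.45) against 10.8% of all genes, and replicate 2 alone gave 23 (7.93%, 5.09 to 11.7) against 10.3%. Shares of small nucleolar RNA (snoRNA) genes, another class of short noncoding genes, were 4.09%, 5.95%, 3.72% and 6.32% in the same order. The background lay above the tRNA interval in the conservative, larger and replicate 1 sets and inside it in replicate 2. The peaks behind these counts numbered 7, 12, 6 and 18, and 27 tRNA genes had a summit in at least 1 of the 4 sets. That last count is given without its share over all genes.

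The 7 conservative peaks each lay near a tRNA gene of a different isotype, and 6 of the 7 (85.7%, 42.1 to 99.6) also had a protein-coding start within 500 bp of the summit. Over the whole conservative set, 1348 of 2984 peaks had such a start. The highest lay 170 bp upstream of tRNA:Tyr-GTA-1-8, in the peak 3R:8669241-8669460. Its signal was 451 in the conservative set, where it ranked 198 by signal, 239 in replicate 1 and 203 in replicate 2. The same summit lay at −274 bp from a transcript start of CG8036, so the tRNA start was the nearer of the pair. It also lay inside the spans of the genes CG8036 and p. Both replicates had this locus in their thresholded sets at the top score of 1000.

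The second, X:6744128-6744443, had its summit 257 bp downstream of the start of tRNA:Phe-GAA-1-2, beyond the gene's end. It lay only 48 bp upstream of the start of RpL17, which encodes a protein of the large ribosomal subunit. Signal was 211 in the conservative set, 77.4 in replicate 1 and 114 in replicate 2. This was the reverse arrangement to the tyrosine locus, with the protein-coding start much nearer than the tRNA start.

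tRNA:Trp-CCA-2-2 had a summit at −276 bp in 2R:18639123-18639438, which was −11 bp from the start of CG30122. Its signal was 132 in the conservative set, 83.0 in replicate 1 and 43.9 in replicate 2, thresholded in both. tRNA:Val-CAC-2-5 had a summit at 471 bp, outside the gene, and 428 bp downstream of the start of Naam, which encodes a nicotinamidase. There the conservative signal was 112 and the replicate 2 signal 77.9, whereas replicate 1 had a candidate of 34.2 that did not enter its thresholded set. The valine locus therefore rested on 1 replicate at the replicates' own thresholds.

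tRNA:Leu-TAA-2-1 had a summit at −218 bp in 3R:24112588-24112903, and −357 bp from the start of CG13605. Signal was 108 in the conservative set and 58.7 in replicate 2, and the replicate 1 candidate of 41.8 was not thresholded. tRNA:His-GTG-1-3 had the weakest conservative peak, at −85 bp with a signal of 105, and −165 bp from the start of CG8490. Replicate 1 had 52.9 there in its thresholded set, and replicate 2 had a candidate of 54.8 that was not thresholded. These 2 loci were thus thresholded in opposite replicates.

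tRNA:Gln-TTG-2-1 was the only gene of the 7 with no protein-coding start within 500 bp of its summit. The peak X:3427577-3427892 had its summit 212 bp upstream of the gene, inside the span of CG12535, and the nearest protein-coding start, that of CG14269, was 8072 bp away. Signal was 110 in the conservative set, 74.7 in replicate 1 and 43.4 in replicate 2, and both replicates had it thresholded. No conservative summit lay inside a tRNA gene, 5 of the 7 lay upstream, the median position was −170 bp, and 1 of the 7 peak intervals covered the tRNA start. A protein-coding start was the nearer of the 2 kinds at 3 of the 7 summits.

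**Figure D1:**
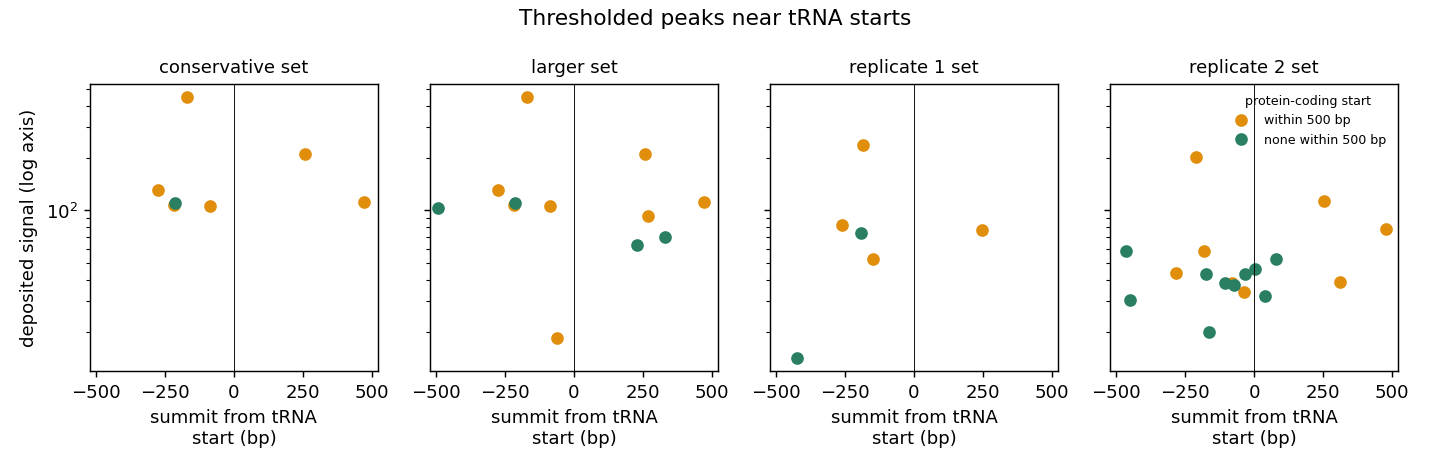
Position of each thresholded peak summit relative to the start of the closest tRNA gene (x axis, bp, downstream positive) against its deposited signal (y axis, log scale), 1 panel per peak set; colour gives whether a protein-coding start lies within 500 bp of the summit. The 7 conservative summits run from −276 to 471 bp and none falls inside a tRNA gene, while 7 of the 18 replicate 2 summits lie within 100 bp of a tRNA start; signal is not scaled between panels.

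The larger set added peaks with weaker signal. tRNA:Ile-AAT-1-9 had a summit at −493 bp with a signal of 103, and no protein-coding start within 500 bp. One peak at 2L:8541869-8542184, with a signal of 92.8, lay within 500 bp of both tRNA:Asp-GTC-1-4 and tRNA:Asp-GTC-1-5 and −120 bp from the start of Sema1a, which encodes a semaphorin of axon guidance. tRNA:Lys-TTT-1-1 had a signal of 70.0 at 331 bp and tRNA:Ala-TGC-2-1 one of 63.0 at 227 bp, both without a protein-coding start. Replicate 1 had no candidate overlapping the aspartate, lysine or alanine peak. Replicate 2 had the aspartate peak in its thresholded set, at 39.0, but only candidates that were not thresholded at lysine (22.0) and alanine (30.9). A further peak, with a signal of 18.4 and a −log10 q-value of 0.048, overlapped the tryptophan peak already described. Its summit lay −61 bp from a tRNA start beside CG30122 and within 500 bp of both tRNA:Trp-CCA-2-2 and tRNA:Gly-GCC-1-9. Of the 12 larger-set peaks, 8 (66.7%, 34.9 to 90.1) had a protein-coding start within 500 bp, beside 2313 of 5359 peaks over the whole larger set.

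The 2 replicate sets differed in where their tRNA peaks lay. In replicate 1 none of the 6 summits was within 100 bp of a tRNA start and none of the intervals covered one, and 4 of the 6 had a protein-coding start within 500 bp. In replicate 2, 7 of 18 summits were within 100 bp of a tRNA start, 8 intervals covered one, and 8 of 18 (44.4%, 21.5 to 69.2) had a protein-coding start. Over the whole sets, 1493 of 3582 replicate 1 peaks and 1641 of 3149 replicate 2 peaks had a protein-coding start within 500 bp. The 5 highest replicate 2 peaks were those at the tyrosine, phenylalanine, valine, isoleucine and leucine genes already described, with signals of 203, 114, 77.9, 58.8 and 58.7. The replicate 1 peak at tRNA:Ile-AAT-1-9, at −423 bp, had a signal of 14.2 and a −log10 q-value of 0.0997, beside an overlapping thresholded peak of 42.2 at −624 bp.

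Thresholded summits inside a tRNA gene, 3 in all, were in the replicate 2 set, and the genes named here were chosen after their values were seen. tRNA:Pro-AGG-1-4 had a summit 4 bp inside the gene in 2L:14599533-14599822, with a signal of 45.8 and no protein-coding start within 500 bp. Just outside a gene, tRNA:Glu-CTC-2-3 had a summit at −31 bp in 3L:22847682-22847971 with a signal of 43.0, also with no protein-coding start. tRNA:Ser-CGA-1-4 and tRNA:Asn-GTT-1-10 had summits at 81 and 38 bp, inside the genes, with signals of 52.4 and 32.4. tRNA:Asp-GTC-1-4 had one at −36 bp, with a signal of 33.9, beside Sema1a. Across the 10 replicate 2 peaks without a protein-coding start, the median distance to the tRNA start was 93.5 bp, compared with 232 bp for the 8 peaks with one. The order was the other way in the larger set, at 279 bp for 4 peaks without and 237.5 bp for 8 with, and in replicate 1, at 307.5 bp for 2 and 215.5 bp for 4.

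The share of tRNA genes reached also differed between replicates in the ranked candidate lists, which were counted after the thresholded results had been seen. These lists are much longer, and the gap there was wider in percentage points but not as a ratio. In replicate 1, 71 of 290 tRNA genes (24.5%, 19.6 to 29.9) had a candidate summit within 500 bp, beside 57.4% of all genes. In replicate 2, 227 tRNA genes (78.3%, 73.1 to 82.9) had one, beside 66.6% of all genes. Replicate 1 therefore fell below its background and replicate 2 rose above its own, although replicate 1 had the longer list. The contrast between replicates was not particular to tRNA genes. snoRNA genes stood at 22.3% in replicate 1 and 69.9% (64.0 to 75.3) in replicate 2. The 32 small nuclear RNA (snRNA) genes stood at 31.25% and 71.9%. Both replicates had a candidate at 44 tRNA genes, replicate 2 alone at 183, replicate 1 alone at 27, and neither at 36. In the list behind the conservative set the count was 80 (27.6%) beside 53.9% of all genes, and in that behind the larger set 193 (66.6%) beside 74.9%. Counted by locus instead of by gene, 64 of 202 loci had a replicate 1 candidate and 151 had a replicate 2 candidate.

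Within 100 bp of the start both counts were lower, at 16 tRNA genes (5.52%, 3.19 to 8.81) in replicate 1 and 126 (43.4%, 37.7 to 49.4) in replicate 2. Over all genes the same shares were 17.1% and 27.8%. Of the candidate summits near tRNA genes, 16 of 86 (18.6%) in replicate 1 and 124 of 250 (49.6%) in replicate 2 were within 100 bp of a start, and 8 and 59 were inside a tRNA gene. Expressed as summits per 100 tRNA genes in each 100 bp, the density within 100 bp of the start was 2.76 in replicate 1, compared with 6.17 at 1 to 2 kb from the start. In replicate 2 it was 21.6 at the start and 10.1 at that distance. The replicate 1 candidates thus dipped over tRNA genes where the replicate 2 candidates peaked. Protein-coding genes showed higher density at the start than at 1 to 2 kb in both replicates, at 9.05 against 7.87 and 15.2 against 9.06. snoRNA genes dipped in both, at 1.67 against 5.04 and 9.11 against 11.9. Leaving out tRNA genes with a protein-coding start nearby gave 2.52 in replicate 1 and 21.3 in replicate 2 at the start. A summit was counted once for each gene in its reach.

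**Figure D2:**
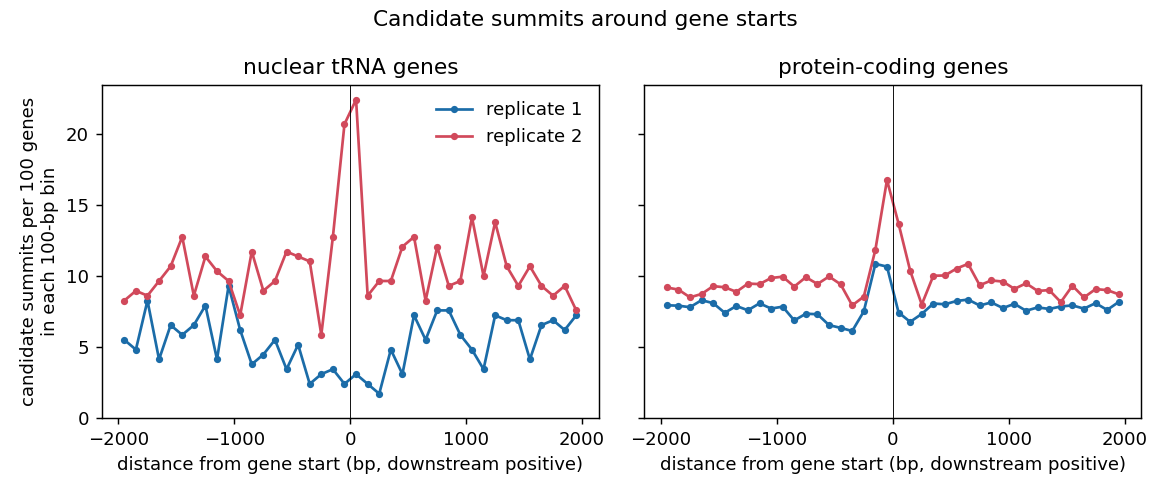
Candidate summits in 100-bp bins around gene starts (x axis, bp along the gene's strand) per 100 genes (y axis), for 290 tRNA genes and 13968 protein-coding genes; blue is replicate 1 and red is replicate 2. Replicate 2 peaks and replicate 1 dips at tRNA starts, while both rise at protein-coding starts.

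The contrast was present at each list length counted from 5000 candidates up. Among the 5000 candidates of highest signal, 7 tRNA genes (2.41%, 0.976 to 4.91) were reached in replicate 1 and 59 (20.3%, 15.9 to 25.4) in replicate 2, while all genes stood at 13.3% and 15.7%. Among the highest 20000, the counts were 14 (4.83%) and 133 (45.9%), with all genes at 24.3% and 37.9%. snoRNA genes stood at 4.09% and 8.92% among the highest 5000, and at 7.06% and 29.4% among the highest 20000. At 3000 candidates, about the size of the thresholded sets, replicate 2 reached 20 tRNA genes (6.90%) against 10.2% of all genes. Its share of tRNA genes passed that of all genes between 3000 and 5000 candidates, just beyond the length of its thresholded set. The median candidate near a tRNA gene stood in the top 53.8% of the replicate 1 list and the top 29.1% of the replicate 2 list.

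**Figure D3:**
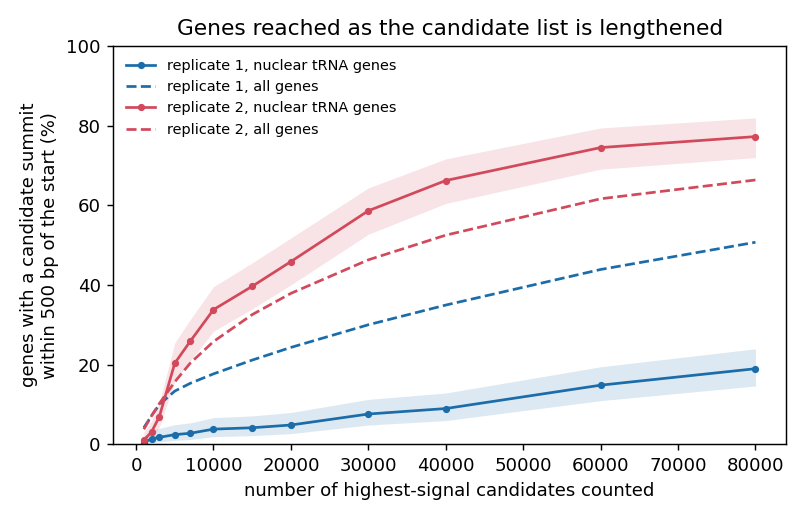
Share of genes with a candidate summit within 500 bp of the start (y axis, %) as more candidates are counted from the highest signal down (x axis); solid lines are tRNA genes with exact 95% intervals shaded, dashed lines all genes. At 20000 candidates tRNA genes stand at 4.83% in replicate 1 and 45.9% in replicate 2, below and above all genes at 24.3% and 37.9%.

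Candidates near tRNA genes entered the thresholded sets more often where a protein-coding start was also near, as candidates did over the whole lists. Of the 109 candidates near tRNA genes behind the conservative set, 7 (6.42%, 2.62 to 12.8) were thresholded. With a protein-coding start within 500 bp of the summit the count was 6 of 17 (35.3%, 14.2 to 61.7), beside 10.6% of all conservative candidates with such a start. Without one it was 1 of 92 (1.09%, 0.0275 to 5.91), beside 2.15% of all candidates without. In the larger list 8 of 31 (25.8%) with such a start and 4 of 191 (2.09%) without were thresholded, beside 13.0% and 2.70% of all. Replicate 1 gave 4 of 18 (22.2%) and 2 of 68 (2.94%), beside 12.5% and 2.13%. Replicate 2 gave 8 of 38 (21.1%) and 10 of 212 (4.72%), beside 10.1% and 2.25%. The order was the same in all 4 lists, which share reads and are not independent.

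All 22 isotypes had candidates in replicate 2, and 21 of them in replicate 1. Replicate 2 covered every gene of histidine (5), isoleucine (11), initiator methionine (6) and the single selenocysteine gene, and 21 of 22 leucine genes. Its lowest share was for serine, with 10 of 20 genes, followed by tryptophan with 5 of 8. In replicate 1 asparagine had 0 of 10 genes and lysine 2 of 19, where replicate 2 had 9 and 14. Serine had the closest shares among isotypes with more than 1 gene, at 7 and 10 of 20. Replicate 2 exceeded replicate 1 in 21 of 22 isotypes, and selenocysteine tied with its single gene in both. Position in the replicate 2 list also varied, taking the candidate of highest signal at each gene that had one. Among isotypes with more than 1 gene, the median was in the top 2.94% for tryptophan, 5.66% for isoleucine and 5.75% for tyrosine. It was 55.6% for initiator methionine and 17.3% over all tRNA genes. These shares were counted by gene, not by locus. The 290 genes lie in 202 loci, some of them shared between isotypes, and many are identical copies, so they are not independent.

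**Figure D4:**
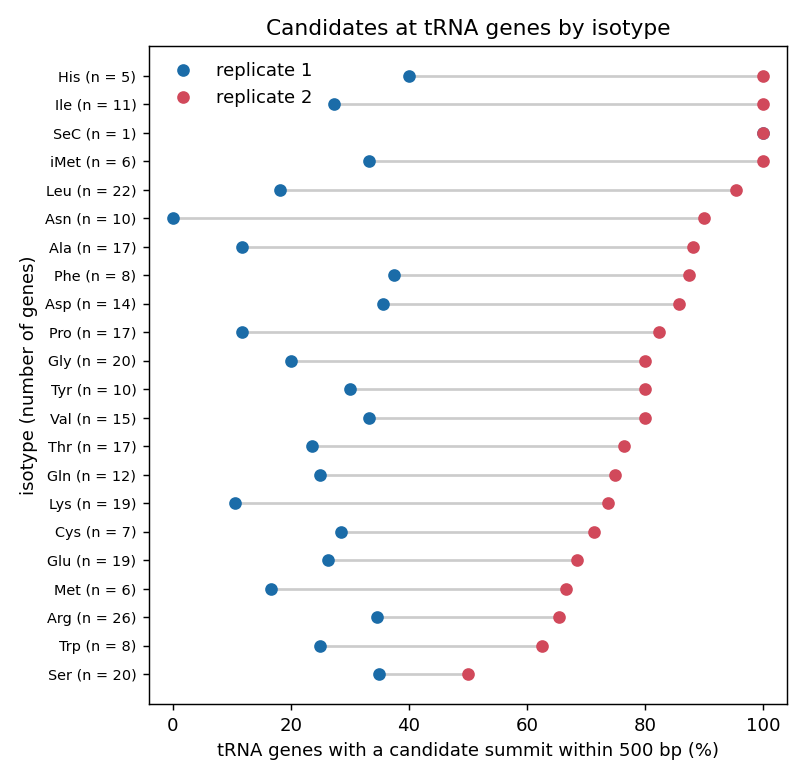
Share of tRNA genes with a candidate summit within 500 bp of the start (x axis, %) for each isotype (y axis, with the number of genes), blue for replicate 1 and red for replicate 2; grey lines join the replicates. Replicate 2 is to the right for every isotype but selenocysteine (SeC), whose single gene has a candidate in both.

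Chromosome arm separated the tRNA genes in a different way. The X chromosome, with 24 tRNA genes in 17 loci, had candidates at 17 genes (70.8%, 48.9 to 87.4) in replicate 1 and 8 genes (33.3%, 15.6 to 55.3) in replicate 2. On the 4 autosomal arms together the counts were 54 of 266 (20.3%, 15.6 to 25.6) and 219 of 266 (82.3%, 77.2 to 86.7). By locus the X had 13 of 17 in replicate 1 and 6 of 17 in replicate 2. The shares over all genes moved little between X and autosomes, at 61.2% and 57.2% in replicate 1 and 68.9% and 66.6% in replicate 2. The X carries serine and arginine genes above all, including, named after their values were seen, tRNA:Arg-TCG-3-2, tRNA:Arg-TCG-3-3 and tRNA:Arg-TCG-3-4, which share a replicate 1 candidate of signal 8.67 and have none in replicate 2. Conversely, 2R, the arm with the most tRNA genes, had 15 of 98 (15.3%) and 88 of 98 (89.8%). The labels give no sex, batch or collection detail that differs between the replicates, and the cause of the arm difference was not tested.

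**Figure D5:**
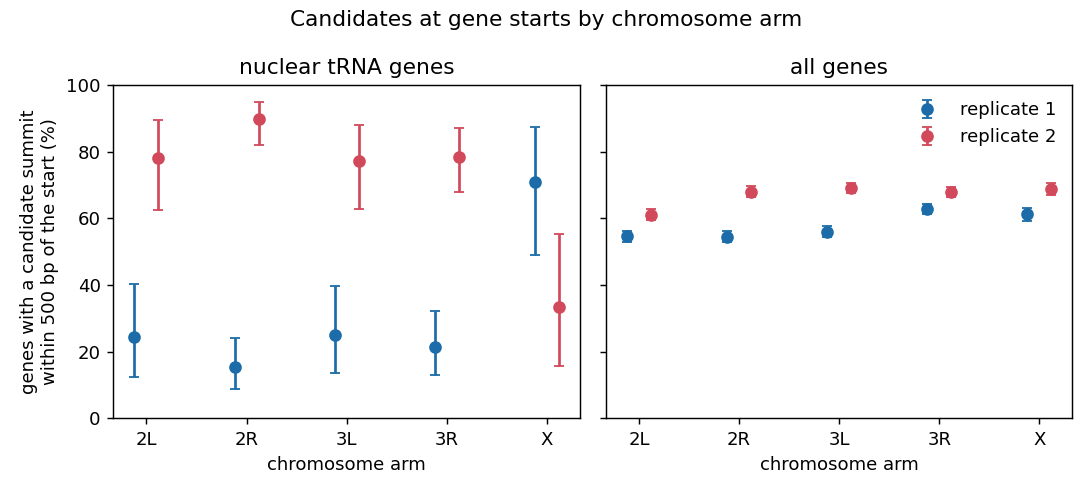
Share of genes with a candidate summit within 500 bp of the start (y axis, %) by chromosome arm (x axis), for tRNA genes (left) and all genes (right); points are shares and bars exact 95% intervals. Replicate 2 is higher for tRNA genes on each autosomal arm, whereas on X replicate 1 stands at 70.8% and replicate 2 at 33.3%.

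Groupings by gene context, chosen after the lists had been seen, showed smaller differences. Genes standing alone in a locus had candidates at 33.8% in replicate 1 and 67.6% in replicate 2, against 16.8% and 89.1% in loci of 2 to 3 genes. Loci of 4 or more genes gave 10.3% and 86.2%. Single-copy genes had 34.6% and 80.8%, and genes with 5 or more identical copies 20% and 78.9%. With the genes split in 3 by how much of the window around them was unique, replicate 1 shares were 14.4%, 26.0% and 33.0% from least to most unique, and replicate 2 shares 80.4%, 87.5% and 67.0%. The part of read mapping in these shares was not tested. Lying inside a protein-coding gene made little difference, at 23.1% against 25.6% outside in replicate 1 and 80.6% against 76.3% in replicate 2.

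Sequence words under the thresholded summits were counted on both strands from 50 bp before to 50 bp after each summit. CACTG, chosen from earlier results of these data, was in 2 of the 7 conservative windows near tRNA genes (28.6%) and in 20.2% of all conservative windows. In replicate 2 it was in 3 of 18 (16.7%) beside 22.0%. The B-box core GTTCGANTC was in 2 of the 18 replicate 2 windows and 0 of the 7 conservative ones, and in 0.286% and 0.201% of all windows of those sets. Those 2 windows, at tRNA:Ser-CGA-1-4 and tRNA:Asn-GTT-1-10, held 51 and 74 bases of a tRNA gene, while no conservative window held any. The word was in 38.6% of tRNA genes, so this count is not independent of where the summits lay. TATCGATA, the DNA replication-related element of many housekeeping promoters, was in 1 conservative window, at tRNA:Trp-CCA-2-2, and in 1.74% of all. TATAAA was in 1 of 7 beside 23.1%. Mean G+C content was 36.1% ± 7.52 (SD, n = 7 windows) near tRNA genes and 33.3% ± 9.73 over all conservative windows.

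Other genes of the RNA polymerase III system gave a mixed picture. None of the 96 annotated 5S rRNA genes had a thresholded summit in any set, and replicate 1 and replicate 2 had candidates at 1 and 0 of them; these are near-identical tandem copies. Of 10 genes for U6, 7SK, 7SL, RNase P and RNase MRP RNAs, none was in the conservative or replicate 1 set. The larger and replicate 2 sets each had 3 (30%), beside 15.6% and 10.3% of all genes. Candidates were at 3 in replicate 1 and 8 in replicate 2. The 3 thresholded genes were the same in both sets and are named after their values were seen. snRNA:7SKa had signals of 74.1 in the larger set and 49.0 in replicate 2. snRNA:U6:96Ab and snRNA:U6:96Ac share 1 peak, of 108 in the larger set and 50.3 in replicate 2. Of 20 protein-coding genes for polymerase subunits and factors, 4 (20%) had a conservative peak, 5 (25%) a replicate 1 peak and 3 (15%) a replicate 2 peak. The shares were 11.1%, 12.8% and 11.9% over protein-coding genes and 9.41%, 10.8% and 10.3% over all genes. These small counts are given without intervals. Candidates were at 10 of the 20 (50%) in replicate 1 and 19 (95%) in replicate 2, a gap about as wide as at the 10 RNA genes. Over all genes the candidate shares were 57.4% in replicate 1 and 66.6% in replicate 2, and over protein-coding genes 58.5% and 69.7%. Bdp1 and Brf, the TFIIIB subunits, had conservative signals of 380 and 389, with 326 and 307 in replicate 1 and 49.7 and 68.2 in replicate 2.

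CG7099 had a conservative signal of 476 and Polr3E, a polymerase III subunit, one of 140. Of 19 genes for tRNA processing and modification, 2 had a conservative peak (10.5%), Tcs5 and Dus2. That share was near the 11.1% of protein-coding genes and the 9.41% of all genes. Candidates were at 8 of the 19 (42.1%) in replicate 1 and 17 (89.5%) in replicate 2, beside 57.4% and 66.6% of all genes. Tcs5, a kinase of the KEOPS complex that modifies tRNAs, had a signal of 1730 at −107 bp and ranked 6 in the conservative set, 7 in replicate 1 and 8 in replicate 2. Dus2, a dihydrouridine synthase, had 260. Each of these signals is above the median of the 7 peaks near tRNA genes, 112, and above the median of the whole conservative set, 137.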

How the data were processed

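ChIP-seq peak lists from 2 replicates of 1 group were used, aligned to dm6 per the labels. Which aligner and peak caller were run, and at what depth, is not given in the sources used here. In each list the authors deposited a score up to 1000, a signal value, a −log10 q-value and a summit offset per peak; lists of both replicates were deposited for the whole series. In the 2 ranked lists of the series, 4 signal columns of the input peaks that match no sample's label were not used. Gene starts, and transcript starts for the protein-coding starts, came from Ensembl release 115 without transposable elements and pseudogenes, and sequence from RefSeq dm6. Summits were joined to starts within 500 bp, counted with Python 3.11.15, pandas 2.3.3, numpy 2.4.6 and scipy 1.17.1, and drawn with matplotlib 3.10.9; counting was tested on simulated data with planted summits. No significance test was made, because there is 1 group and the members are a list. Named genes were those with a conservative summit, at the 10 highest larger-set peaks, the 5 highest of each replicate set and the 5 highest larger-set peaks without a protein-coding start, with the protein-coding genes beside them. In the RNA polymerase III lists 1 name had no match. Members and lists were chosen with earlier results of these data known. The windows, overlap rule, score and signal limits, closest-start rule, copies and left-out replicates were varied.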

Additional observations from a re-analysis of the deposited data

How the results depend on the processing

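Counts of tRNA genes depended on the joining rule. With a window of 200 bp they became 2 (conservative), 3 (larger), 3 (replicate 1) and 13 (replicate 2), and with 1000 bp 14, 25 and 12 for the first 3 sets. Requiring the interval to overlap the gene left 1, 3, 0 and 10. Requiring the tRNA start to be the closest start left 4, 8, 3 and 13, signal above the set's median 2, 8, 2 and 5, and genes without an identical copy 3, 5, 2 and 4. A score of 1000 left 15 in replicate 2. Using the set of 1 replicate in place of the conservative set gave 6 to 23.

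For candidates, with alternatives chosen after seeing the data, 200 bp gave 45, 125 and 32 (conservative, larger, replicate 1), 1000 bp 132 (conservative) and 137 (replicate 1), and overlap 41, 118 and 26. The highest 20000 gave 36, 58, 14 and 133 with replicate 2, merged loci 151 for replicate 2, and genes without an identical copy 23, 42, 18 and 42. Without a nearby protein-coding start, thresholded shares were 1.09% (conservative) and 2.09% (larger), and the median summit position was 7.5 bp, turned from −73 bp, in the larger set and −307.5 bp, from −189 bp, in replicate 1; the cause was not tested. A limit of 200 bp for protein-coding starts gave 42.9% (conservative, from 85.7%), 33.3% (larger) and 16.7% (replicate 2). Using gene starts only, not every transcript start, gave 71.4% (conservative), 58.3% (larger), 50% (replicate 1) and 33.3% (replicate 2) at 500 bp. CACTG shares were 0% (conservative) and 8.33% (larger) within 25 bp of the summit and 50% (replicate 2) within 100 bp, beside 9.38%, 9.98% and 48.2% of all peaks. Under the alternatives run, 39 values, that conservative 42.9% with its wide interval among them, stayed within 1.5 times their count or within their interval. More values, 50, moved beyond these limits, and 1 changed sign.

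Counts of 7 to 23 genes leave wide intervals, unknown depth limits what either replicate could detect, and signals cannot be compared between lists. No paired analysis was possible because there is 1 group.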
